A study of Homo sapiens with 9 samples.

Results

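Neurofilament and other intermediate filament genes were followed in 9 RNA-seq libraries from 3 human cell lines. The 10 genes are NEFL, NEFM, NEFH, INA, PRPH, VIM, NES, KRT8, KRT18 and KRT19, taken by name from the 60648 genes of the count table, with each Ensembl identifier matched without its version. TC4-2A cells carry an insertion from which a circular RNA built of SMN1/2 exons 2A to 4 is overexpressed. TL4-2A cells carry one for the matching linear RNA. The parental line, T-REx, has no insertion. T-REx is an inducible derivative of HEK293, a line grown from human embryonic kidney. All 3 lines, T-REx included, were kept in doxycycline for 96 hours before total RNA was taken, and each gave 3 libraries. TC4-2A cells also make linear precursor of the circle. Whether TC4-2A and TL4-2A are single clones or pools, and whether the libraries of a line are separate cultures, is stated in no source used here, so the p-values measure the spread between libraries. What the inserted RNA does and how lines established apart differ for other reasons cannot be told apart in this design.

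Intermediate filaments are rope-like polymers of the cytoskeleton, and different cell types build them from different subunits. Neurons use NEFL, NEFM and NEFH, the light, medium and heavy neurofilament proteins, together with INA (α-internexin) and, in peripheral neurons, PRPH (peripherin). Mesenchymal cells use VIM (vimentin), neural progenitors add NES (nestin), and simple epithelia pair the type II keratin KRT8 with the type I keratins KRT18 and KRT19. Neurofilaments fill motor axons, and HEK293 cells are known to express several neurofilament genes alongside vimentin and simple keratins.

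RefSeq's GRCh38.p14 promoter table held 5 of the 10 genes, INA, PRPH, VIM, NES and KRT8. The windows of 4 of them are printed because these genes took different courses in the 3 lines: VIM was lower in both modified lines, PRPH and NES were lower in TL4-2A cells, and INA passed the test against T-REx cells in neither line. Each runs 5′ to 3′ from 250 bases before to 50 bases after the gene's start, and capitals mark a GC box (GGGCGG or, on the other strand, CCGCCC) or a TATA box (TATAAA or TTTATA).
VIM, chr10:17227991-17228290, plus strand: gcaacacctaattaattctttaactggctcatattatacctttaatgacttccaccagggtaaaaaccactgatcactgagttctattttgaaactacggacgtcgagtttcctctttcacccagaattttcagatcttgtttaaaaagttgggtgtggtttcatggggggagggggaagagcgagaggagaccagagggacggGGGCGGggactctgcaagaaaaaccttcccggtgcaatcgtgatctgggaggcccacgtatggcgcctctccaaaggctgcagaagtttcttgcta
PRPH, chr12:49294897-49295196, plus strand: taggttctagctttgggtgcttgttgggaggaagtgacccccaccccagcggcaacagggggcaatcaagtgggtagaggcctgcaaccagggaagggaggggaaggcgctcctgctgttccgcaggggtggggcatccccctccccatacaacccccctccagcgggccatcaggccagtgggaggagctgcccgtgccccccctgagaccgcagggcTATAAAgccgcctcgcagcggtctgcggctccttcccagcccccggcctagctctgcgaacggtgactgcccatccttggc
NES, chr1:156677358-156677657, minus strand: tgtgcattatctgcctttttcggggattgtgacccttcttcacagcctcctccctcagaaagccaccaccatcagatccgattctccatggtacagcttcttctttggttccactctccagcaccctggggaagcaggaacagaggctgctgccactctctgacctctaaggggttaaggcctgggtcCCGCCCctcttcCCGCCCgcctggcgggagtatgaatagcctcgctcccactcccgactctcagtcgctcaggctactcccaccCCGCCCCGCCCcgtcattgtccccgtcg
INA, chr10:103276888-103277187, plus strand: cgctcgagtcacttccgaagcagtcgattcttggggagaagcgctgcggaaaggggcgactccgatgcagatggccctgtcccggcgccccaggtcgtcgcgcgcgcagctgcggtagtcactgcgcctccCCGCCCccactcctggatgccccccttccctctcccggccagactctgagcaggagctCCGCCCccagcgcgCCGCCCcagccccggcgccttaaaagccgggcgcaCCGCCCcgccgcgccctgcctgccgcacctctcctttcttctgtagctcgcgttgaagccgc
PRPH alone among the 4 windows held a TATA box, which began 31 bases before the annotated start, and it held no GC box. VIM had 1 GC box, and NES and INA had 4 each, of which 2 overlap in NES. Among the 35116 promoters of the table, 45.0% held a GC box and 11.5% a TATA box. G and C made up 48.0% of the VIM window, 67.0% of PRPH, 60.3% of NES and 71.3% of INA, against a median of 58.7% over all promoters. These letter matches are a description of the windows and were not tied to binding of any factor.

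Libraries held 16561680 to 21491977 counts. The first principal components of log2 CPM (reads of a gene scaled to a common library size by TMM) carried 38.9% and 27.2% of the variance. SMN1 and SMN2 together averaged 94.7 ± 2.99 CPM in the TC4-2A line and 62.4 ± 1.49 CPM in the TL4-2A line. In T-REx cells they averaged 54.8 ± 1.08 CPM (SD, n = 3 each). Both modified lines were thus above the parental one in reads counted under these names. Such reads may come from the inserted exons, so they do not give the level of the locus itself. By qPCR, the paper found these transcripts raised in the line with the circle and lowered in the line with the linear RNA. Of 6 kidney lineage markers, PAX8, CDH6 and CDH16 had 3 counts or fewer in every library, while PAX2 averaged 8.52 CPM in TC4-2A, 7.36 CPM in TL4-2A and 7.19 CPM in T-REx libraries. The 10 neuronal markers were split as well: STMN2 and DCX reached 5 and 2 counts at most, and SYP averaged 21.2 CPM in TC4-2A, 20.1 CPM in TL4-2A and 16.1 CPM in T-REx libraries.

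Of the 10 genes, 9 had enough counts for the test across genes (edgeR's quasi-likelihood test on 19473 genes, adjusted p under 0.05). NEFH (ENSG00000100285.10, chr22:29480218-29491390, plus strand) did not: it had 6, 13 and 2 counts in the TC4-2A libraries, 6, 9 and 4 in the TL4-2A libraries and 9, 13 and 8 in the T-REx libraries, and these ranges overlap. In TC4-2A cells, 6 of the 9 genes were lower than in T-REx cells and 0 were higher. Over all genes tested in that comparison, 28.8% passed in either direction, 14.6% as lower and 14.2% as higher. In TL4-2A cells 7 of the 9 were lower than in T-REx cells and 0 higher, against 44.3% of all genes passing in either direction, 22.5% as lower and 21.9% as higher. The median log2 fold change of the 9 was -0.30 in the TC4-2A line and -0.72 in the TL4-2A line, where the median over all genes tested was 0.00 in both. The 10 genes were chosen with earlier results of these data known. Whether their counts depart from the shares over all genes was not tested. The comparisons share the T-REx libraries, so they are not independent of each other, and 5 genes (NEFL, VIM, KRT8, KRT18 and KRT19) were lower in both. In bulk RNA, fewer cells with a transcript and less of it per cell cannot be told apart.

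**Figure D1:**
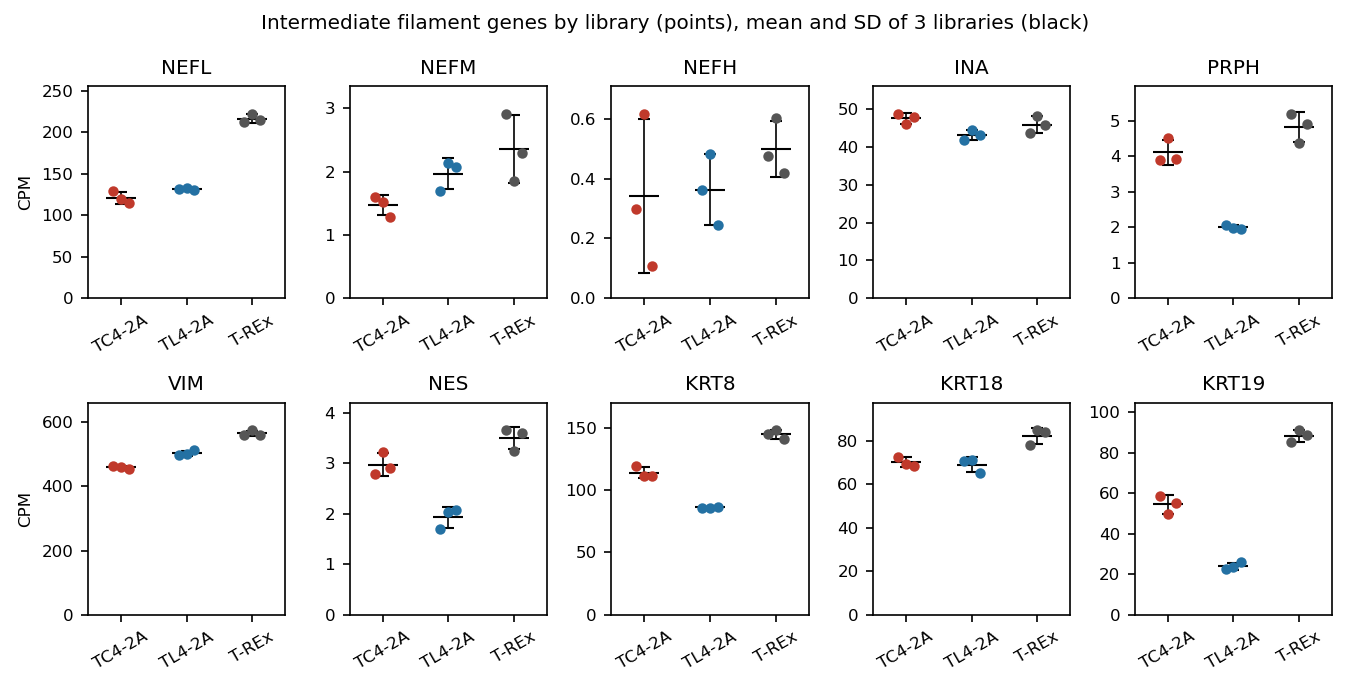
CPM of each of the 10 genes (vertical axis from 0, its own scale per panel) in the TC4-2A, TL4-2A and T-REx libraries; points are libraries, black bars the mean and SD of 3. T-REx libraries are highest for NEFL, VIM and the 3 keratins, INA is nearly level, and TL4-2A libraries are lowest for PRPH, NES, KRT8 and KRT19.

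NEFL (ENSG00000277586.4, GRCh38 chr8:24950955-24956721, minus strand), the subunit on which neurofilaments are built, fell in both modified lines by a similar size. It stood at 129, 119 and 115 CPM in TC4-2A libraries, 131, 133 and 131 CPM in TL4-2A libraries and 212, 223 and 216 CPM in T-REx libraries. Every T-REx library lay above every library of the other lines. Relative to T-REx cells, NEFL fell by 44.2% in TC4-2A cells (log2 fold change -0.84, SE 0.03, adjusted p = 5.18e-21) and fell by 39.2% in TL4-2A cells (log2 fold change -0.72, SE 0.03, adjusted p = 4.11e-19). The modified lines differed little from each other: TC4-2A was lower than TL4-2A by a log2 difference of -0.12 (SE 0.04, adjusted p = 0.00686), and without TC4-2A replicate 3 this difference was -0.09 and missed the threshold (adjusted p = 0.0863).

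NEFM (ENSG00000104722.14, chr8:24913758-24919098, plus strand), whose protein joins NEFL in the filament and carries a long side arm, was far scarcer. It had 1.60, 1.52 and 1.29 CPM in TC4-2A libraries, 1.70, 2.14 and 2.07 CPM in TL4-2A libraries and 2.92, 1.85 and 2.30 CPM in T-REx libraries. The TC4-2A libraries lay below all others, while TL4-2A and T-REx libraries overlapped. NEFM fell in TC4-2A cells relative to T-REx cells (log2 fold change -0.66, SE 0.22, adjusted p = 0.0176). That call rested on few counts, between 24 and 55 per library, and was lost without TC4-2A replicate 3 (adjusted p = 0.0697), without T-REx replicate 1 (adjusted p = 0.136) and with DESeq2 (adjusted p = 0.083). In TL4-2A cells its log2 fold change was -0.24 (95% interval -0.67 to 0.18, adjusted p = 0.366). NEFM shares 960 annotated bases with the lncRNA gene ENSG00000272163 on the other strand, which had 20 to 43 counts per library, and the part of those reads was not tested.

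INA (ENSG00000148798.11, chr10:103277138-103290346, plus strand), which can copolymerise with the neurofilament triplet, passed against T-REx cells in neither line. It had 48.9, 46.1 and 47.9 CPM in TC4-2A libraries, 41.8, 44.6 and 43.1 CPM in TL4-2A libraries and 43.7, 48.2 and 45.9 CPM in T-REx libraries. T-REx libraries spanned much of the range of the other lines. The log2 fold change against T-REx cells was 0.05 in TC4-2A cells (95% interval -0.05 to 0.15, adjusted p = 0.491) and -0.09 in TL4-2A cells (95% interval -0.19 to 0.01, adjusted p = 0.147), intervals that leave out a fall of the size seen for NEFL. INA was higher in TC4-2A than in TL4-2A cells by a log2 difference of 0.14 (SE 0.05, adjusted p = 0.0265), but with DESeq2 the adjusted p was 0.0909, and it ranged between 0.0505 and 0.0884 when TC4-2A replicate 1 or 3 or TL4-2A replicate 1 or 3 was left out. INA shares 468 annotated bases with NT5C2 on the other strand, which had 1056 to 1543 counts per library against 691 to 1040 for INA, and the part of those reads was not tested.

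PRPH (ENSG00000135406.14, chr12:49295147-49298686, plus strand), the filament protein of peripheral neurons, fell in TL4-2A cells. It had 3.90, 4.51 and 3.92 CPM in TC4-2A libraries, 2.06, 1.98 and 1.95 CPM in TL4-2A libraries and 5.20, 4.36 and 4.90 CPM in T-REx libraries. TL4-2A libraries stood below all others, and TC4-2A and T-REx libraries overlapped. In TL4-2A cells PRPH fell by 58.4% relative to T-REx cells (log2 fold change -1.26, SE 0.16, adjusted p = 5.63e-08). Its log2 fold change in TC4-2A cells was -0.22 (95% interval -0.50 to 0.06, adjusted p = 0.241), and the direct difference, TC4-2A minus TL4-2A, was 1.04 (SE 0.17, adjusted p = 4.22e-06). The whole of PRPH lies within the span of TROAP-AS1 on the other strand, which had 88 to 154 counts per library, and how the authors' counting used strand is not given in the sources used here. TROAP-AS1 itself had log2 fold changes of -0.29 in TC4-2A cells (adjusted p = 0.0519) and -0.40 in TL4-2A cells (adjusted p = 0.00594); its part in the PRPH values was not tested.

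VIM (ENSG00000026025.16, chr10:17228241-17237593, plus strand) was the most abundant of the 10 transcripts in every line and fell in both modified lines by less than NEFL. It had 464, 461 and 455 CPM in TC4-2A libraries, 497.5, 502 and 513 CPM in TL4-2A libraries and 559.8, 576 and 562 CPM in T-REx libraries. The lines did not overlap, with TC4-2A lowest and T-REx highest. VIM fell by 18.7% in TC4-2A cells (log2 fold change -0.30, SE 0.03, adjusted p = 1.3e-11) and fell by 10.9% in TL4-2A cells (log2 fold change -0.17, SE 0.03, adjusted p = 2.26e-06) relative to T-REx cells. TC4-2A cells had less VIM than TL4-2A cells (log2 difference -0.13, SE 0.03, adjusted p = 0.000107).

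NES (ENSG00000132688.11, chr1:156668763-156677407, minus strand), which co-assembles with vimentin in dividing neural progenitors, took the order seen for PRPH. It had 2.80, 3.23 and 2.90 CPM in TC4-2A libraries, 1.70, 2.03 and 2.07 CPM in TL4-2A libraries and 3.66, 3.24 and 3.60 CPM in T-REx libraries. All TL4-2A libraries were lowest, and the highest TC4-2A library came just under the lowest T-REx library. NES fell by 44.5% in TL4-2A cells relative to T-REx cells (log2 fold change -0.85, SE 0.18, adjusted p = 0.000178). For TC4-2A the log2 fold change was -0.23 (95% interval -0.55 to 0.09, adjusted p = 0.306), and TC4-2A exceeded TL4-2A by 0.62 (SE 0.18, adjusted p = 0.00746) on the log2 scale.

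The simple keratins fell in both lines, KRT19 most. KRT19 (ENSG00000171345.13, chr17:41523617-41528308, minus strand), a type I keratin of ducts and glands, had 58.8, 49.6 and 55.1 CPM in TC4-2A libraries, 22.5, 23.5 and 25.8 CPM in TL4-2A libraries and 85.1, 91.1 and 88.8 CPM in T-REx libraries. The 3 lines were clearly apart. Relative to T-REx cells it fell by 38.4% in TC4-2A cells (log2 fold change -0.70, SE 0.05, adjusted p = 1.6e-13) and fell by 72.9% in TL4-2A cells (log2 fold change -1.89, SE 0.06, adjusted p = 6.18e-25). The TC4-2A level was 2.28-fold the TL4-2A level (adjusted p = 2.02e-18).

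KRT8 (ENSG00000170421.12, chr12:52897187-52949954, minus strand), the type II partner, kept the same order with a smaller spread between lines. It had 119.8, 112 and 111 CPM in TC4-2A libraries, 85.9, 86.2 and 86.9 CPM in TL4-2A libraries and 145, 148 and 141 CPM in T-REx libraries. No library of a line overlapped those of another. KRT8 fell by 21.2% in TC4-2A cells (log2 fold change -0.34, SE 0.04, adjusted p = 9.85e-10) and fell by 40.5% in TL4-2A cells (log2 fold change -0.75, SE 0.04, adjusted p = 1.16e-18), and TC4-2A exceeded TL4-2A by 0.41 (SE 0.04, adjusted p = 2.91e-11) on the log2 scale.

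KRT18 (ENSG00000111057.11, chr12:52948871-52952906, plus strand), the usual type I partner of KRT8, fell by nearly the same amount in both lines. It had 72.8, 69.6 and 68.6 CPM in TC4-2A libraries, 70.8, 71.4 and 65.1 CPM in TL4-2A libraries and 78.3, 85.0 and 84.0 CPM in T-REx libraries. The modified lines overlapped and all their libraries lay below T-REx. KRT18 fell by 14.7% in TC4-2A cells (log2 fold change -0.23, SE 0.05, adjusted p = 0.000133) and fell by 16.2% in TL4-2A cells (log2 fold change -0.25, SE 0.05, adjusted p = 2.01e-05). The direct log2 difference, TC4-2A minus TL4-2A, was 0.03 (95% interval -0.07 to 0.12, adjusted p = 0.717).

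**Figure D2:**
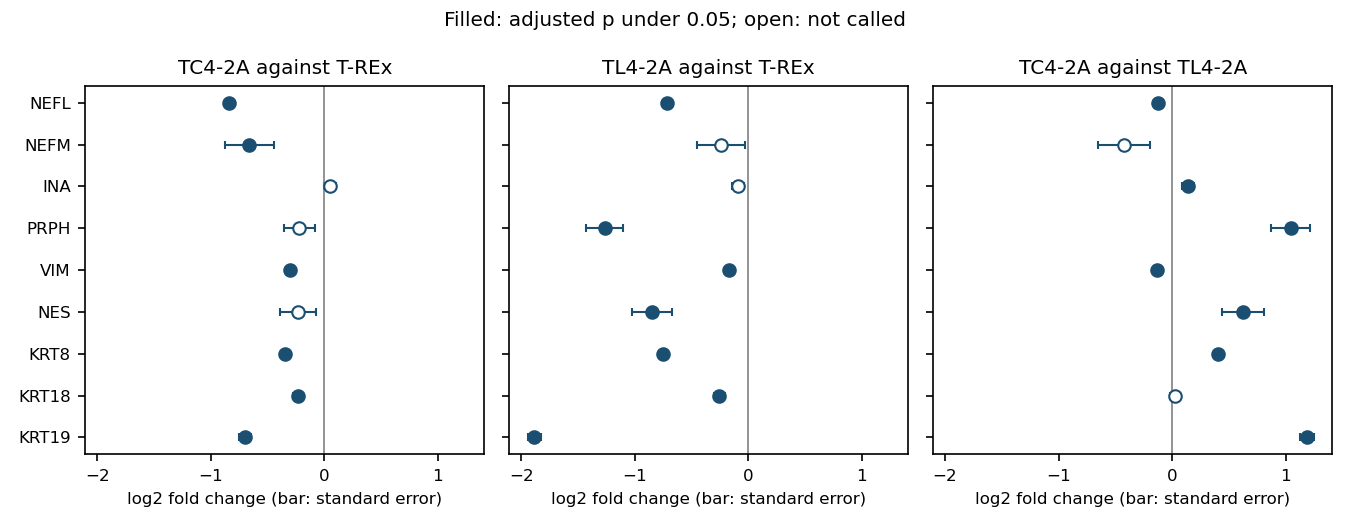
Log2 fold change (horizontal axis, bars are standard errors) of the 9 genes tested, each modified line against T-REx and then TC4-2A against TL4-2A; filled points passed at an adjusted p under 0.05. The largest fall is KRT19 in TL4-2A cells at -1.89, and INA is open in both comparisons with T-REx.

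Set directly against each other, the modified lines differed in 7 of the 9 genes, where 35.4% of all genes tested differed. NEFL and VIM were lower in TC4-2A than in TL4-2A cells, and INA, PRPH, NES, KRT8 and KRT19 were higher. Among all genes 17.8% were lower and 17.6% higher, and departure from these shares was not tested. The differences of NEFL, VIM and INA were small, under the median size of 0.17 over all genes tested on the log2 scale, and those of KRT19 and PRPH exceeded 1.

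KRT8 and KRT18 proteins pair one to one in filaments, so the ratio of their transcripts was taken within each library, where no scaling between libraries enters. KRT19, also a type I keratin that pairs with KRT8, was left out of this ratio. KRT19 fell by more than KRT8 against T-REx. For the TC4-2A line the log2 fold changes were -0.70 (KRT19) and -0.34 (KRT8). For the TL4-2A line they were -1.89 (KRT19) and -0.75 (KRT8). The ratio therefore describes KRT8 beside KRT18 only, and KRT8 beside both type I keratins together was not tested. The KRT8 to KRT18 ratio of CPM was 1.64, 1.61 and 1.62 in TC4-2A libraries, 1.21, 1.21 and 1.33 in TL4-2A libraries and 1.86, 1.75 and 1.68 in T-REx libraries. The lines did not overlap, with TL4-2A lowest. The mean log2 ratio differed from T-REx by -0.11 in TC4-2A cells and by -0.49 in TL4-2A cells, and TC4-2A exceeded TL4-2A by 0.38, each with a 2-sided exact permutation p of 0.1, the smallest that 3 libraries against 3 can give.

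Both keratins have many pseudogenes that could share reads with them: the table lists 51 for KRT8 and 67 for KRT18, of which 23 and 26 had a count. The pseudogenes took 12.7% to 23.1% of the summed KRT8 counts and 14.6% to 19.3% of the summed KRT18 counts. With them added, the difference of the log2 ratio was -0.07 in TC4-2A cells (exact permutation p = 0.4) and -0.37 in TL4-2A cells (exact permutation p = 0.1) against T-REx cells, so the TC4-2A value then overlapped T-REx while the TL4-2A value did not. The genes also lie head to head and share 1084 annotated bases on opposite strands, and the part of those reads was not tested. The 3 neurofilament genes each have 1 listed pseudogene, at 0 counts in every library, and KRT19 has 5, of which 1 had a count.

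NEFM to NEFL, a pair of neighbouring genes whose proteins assemble together, gave a less settled ratio. The log2 ratio of CPM was -6.33, -6.29 and -6.48 in TC4-2A libraries, -6.27, -5.96 and -5.98 in TL4-2A libraries and -6.18, -6.91 and -6.55 in T-REx libraries. T-REx libraries alone covered most of the range. The differences from T-REx were 0.18 in TC4-2A cells (exact permutation p = 0.6) and 0.48 in TL4-2A cells (exact permutation p = 0.2), and TC4-2A minus TL4-2A was -0.30 (exact permutation p = 0.1).

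**Figure D3:**
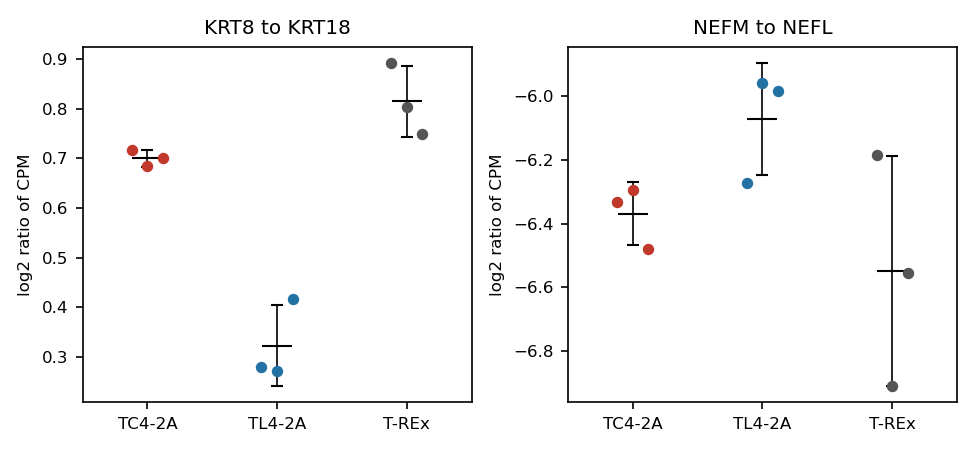
Log2 ratio of CPM (vertical axis) of KRT8 to KRT18 and of NEFM to NEFL in each library of TC4-2A, TL4-2A and T-REx, with mean and SD of 3. The TL4-2A keratin ratios sit apart at 0.27 to 0.42, and the neurofilament ratios of T-REx spread widely between -6.91 and -6.18.

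Levels of different genes were compared per kilobase of annotated exon. On the scale of CPM per kb, VIM led in every line, with 88.9 in TC4-2A, 97.4 in TL4-2A and 109 in T-REx cells, followed by NEFL with 30.7, 33.4 and 55.0 in the same lines. The 3 keratins and INA came next in every line. The keratin order changed: KRT19 followed NEFL in T-REx cells at 37.8 CPM per kb, was level with KRT18 in TC4-2A cells (23.3 and 22.9 CPM per kb, with overlapping libraries) and was last of the 3 in TL4-2A cells at 10.2 CPM per kb, below INA (13.3) and KRT8 (12.5). PRPH, NES and NEFM stood at 1.84 CPM per kb or less everywhere, and NEFM and NES overlapped in T-REx cells. The annotated exons of KRT8 add up to 6.881 kb over several transcripts, which lowers its level on this scale. Exon lengths of the other genes, such as 5.176 kb for VIM, were likewise taken over all annotated transcripts. The order of genes, the sum and the shares below depend on these lengths.

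Summed over the 10 genes, the level was 199.7 ± 5.70 CPM per kb in TC4-2A cells, 191 ± 1.76 CPM per kb in TL4-2A cells and 267 ± 5.90 CPM per kb in T-REx cells (SD, n = 3 each). The modified lines thus held less intermediate filament transcript of these genes per total RNA counted. Within the sum, VIM made up 44.5% in TC4-2A, 51.0% in TL4-2A and 40.9% in T-REx cells. NEFL made up 15.4%, 17.5% and 20.6% in the same order of lines, and KRT19 11.7%, 5.36% and 14.1%.

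**Figure D4:**
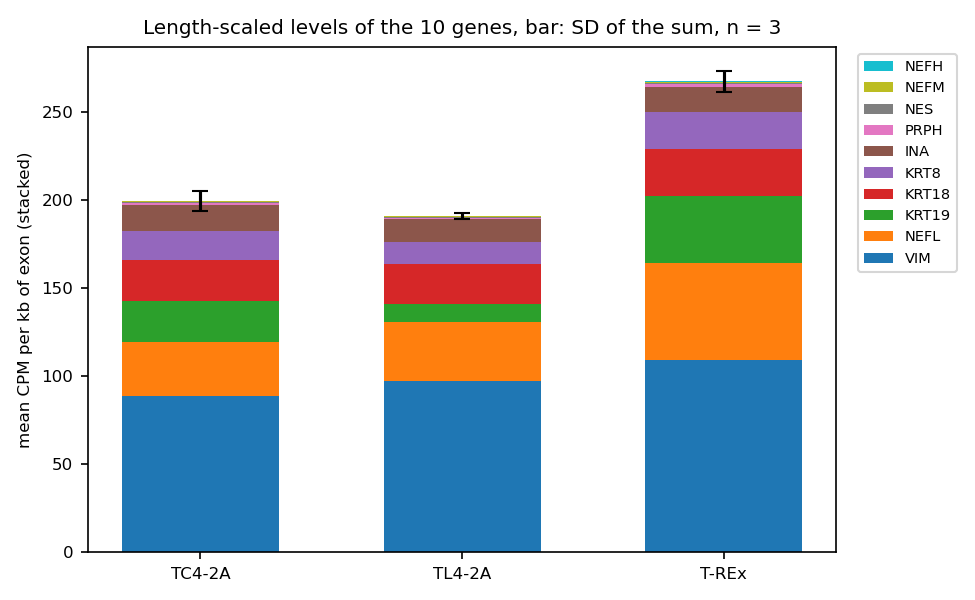
Mean CPM per kb of exon (vertical axis, stacked from 0) of the 10 genes in the TC4-2A, TL4-2A and T-REx lines; the bar at the top of each column is the SD of the sum over 3 libraries. The T-REx column reaches 267, the modified lines 199.7 and 191, with VIM the largest block in each.

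Across the 9 libraries the genes fell into different patterns, given as Pearson's r of log2 CPM over libraries that share line and scaling. KRT8 went most closely with KRT19 (r = 0.99), and PRPH with NES (r = 0.97) and KRT19 (r = 0.95). NEFL went with VIM (r = 0.94) and KRT18 (r = 0.91) and not with its filament relative INA (r = 0.05). Among 13668 protein-coding genes, those most like NEFL over the 9 libraries were RSPO4 (r = 0.996), MFAP2 (r = 0.991) and TMBIM6 (r = 0.990). Those most like VIM were GK (r = 0.991), OAT (r = 0.989) and ARRDC4 (r = 0.989), and those most like KRT8 were SELENON (r = 0.997), SPINT2 (r = 0.995) and EPHA2 (r = 0.993). RSPO4, a secreted enhancer of Wnt signalling, averaged 0.733 CPM in TC4-2A, 0.949 CPM in TL4-2A and 5.54 CPM in T-REx cells. MFAP2 averaged 0.0 CPM in TC4-2A, 0.058 CPM in TL4-2A and 8.20 CPM in T-REx cells. Its r thus rests on the step between T-REx and the modified lines, where it was at the floor. SPINT2, a membrane serine protease inhibitor of epithelia, averaged 121 CPM in TC4-2A, 71.0 CPM in TL4-2A and 179.6 CPM in T-REx cells.

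The genes around each locus were read beside it, taking the 10 tested genes on each side. The median log2 fold change of the 20 genes around NEFL was -0.06 in the TC4-2A line and -0.09 in the TL4-2A line, against -0.84 and -0.72 for NEFL. Single neighbours ran from -1.79 to 0.14 in the TC4-2A line and from -1.29 to 0.40 in the TL4-2A line. The lowest neighbour thus fell by more than NEFL in both. Of these 20, which include NEFM, 8 were lower and 1 higher in the TC4-2A line, and 3 lower and 2 higher in the TL4-2A line. Over all genes tested, 14.6% were lower and 14.2% higher in the TC4-2A line, and 22.5% and 21.9% in the TL4-2A line. Around VIM the medians were -0.05 and -0.12. There 0 of 20 neighbours were lower and 0 higher in the TC4-2A line, and 7 were lower and 2 higher in the TL4-2A line. Around PRPH they were -0.06 and -0.10, and its neighbour TROAP was higher in TC4-2A (log2 fold change 0.16, adjusted p = 0.0114) and in the TL4-2A line at 0.28 (adjusted p = 1.51e-05).

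Around KRT19, 5 of 20 neighbours were lower and 0 higher in TC4-2A cells, and 9 were lower and 0 higher in TL4-2A cells, where 14.6% and 22.5% of all genes tested were lower. The medians were -0.13 and -0.12, and 4 of the 20 are keratin genes. The next gene, KRT17, a keratin of basal cells, was lower in the TC4-2A line at a log2 fold change of -1.12 (adjusted p = 0.0211) and in the TL4-2A line at -1.64 (adjusted p = 0.00171). KRT17 was near the floor, with means of 0.337 CPM in TC4-2A, 0.231 CPM in TL4-2A and 0.736 CPM in T-REx libraries. Beside NES, CRABP2, which carries retinoic acid in the cell, was lower in both lines, with log2 fold changes of -0.23 in TC4-2A cells (adjusted p = 0.000619) and -0.95 in TL4-2A cells (adjusted p = 2.46e-16). Around NES 2 of 20 neighbours were lower and 6 higher in TC4-2A cells, and 9 lower and 7 higher in TL4-2A cells. EIF4B, next to KRT18 and a helper of translation initiation, was higher in the TC4-2A line at a log2 fold change of 0.12 (adjusted p = 0.000542).

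**Figure D5:**
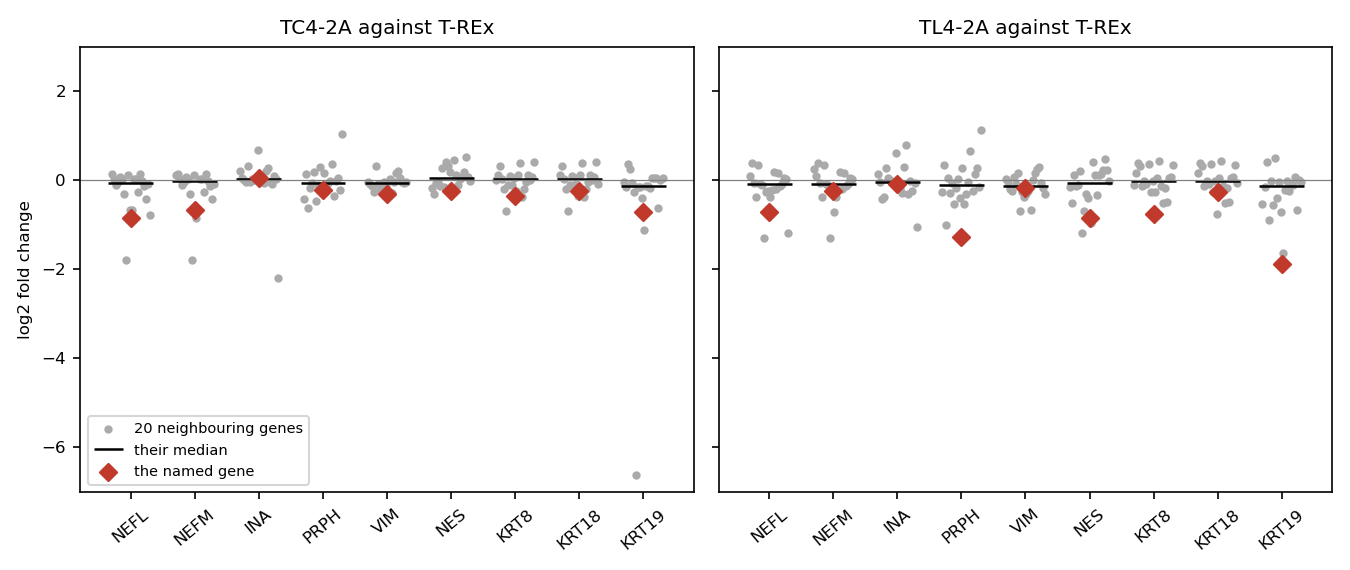
Log2 fold change (vertical axis) of each of 9 genes (diamond) and of the 10 tested genes on either side of it (grey points in order along the chromosome, black line their median) in TC4-2A and TL4-2A against T-REx cells. Neighbour medians lie near 0 at every locus; the lowest grey point is KRT222, which had 0 counts in all TC4-2A libraries, so its plotted value depends on the prior count.

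The wider family was read from all other keratin genes plus lamins and lesser filament proteins. Of these 63 genes 14 were tested and 20, all keratins, had no count in any library. In TC4-2A cells 5 were lower and 2 higher than in T-REx cells (median log2 fold change -0.24), and in TL4-2A cells 6 were lower and 3 higher (median -0.43). Background shares over all genes tested were 14.6% lower and 14.2% higher for TC4-2A, against 22.5% and 21.9% for TL4-2A. Whether the family departs from these shares was not tested. SYNM (synemin), which links vimentin and desmin filaments to other structures, was lower in both lines. Its log2 fold change was -0.56 for TC4-2A (adjusted p = 1.5e-09) and -0.59 for TL4-2A (adjusted p = 4.71e-10). KRT222 had 0 counts in the 3 TC4-2A libraries, 9, 24 and 14 counts in TL4-2A libraries and 7, 17 and 14 counts in T-REx libraries. Against a floor of 3 counts over the line, KRT222 was at least 12.7-fold lower in TC4-2A than in T-REx cells. Of the filament-like genes, IFFO2 was lower in the TC4-2A line at a log2 fold change of -0.20 (adjusted p = 0.00507) and in the TL4-2A line at -0.84 (adjusted p = 4.52e-14). IFFO1 had log2 fold changes of 0.10 for TC4-2A (adjusted p = 0.127) and 0.66 for TL4-2A (adjusted p = 5.51e-14).

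Of 30 linkers, junction anchors, turnover and transport factors of the filaments, 27 were tested. In TC4-2A cells 6 were lower and 6 higher (median log2 fold change -0.03), and in TL4-2A cells 10 were lower and 7 higher (median -0.02). The same background shares, 14.6% lower and 14.2% higher for TC4-2A and 22.5% and 21.9% for TL4-2A, apply to these 27. Whether their counts depart from them was not tested. EPPK1 (epiplakin), a linker that binds keratin and vimentin filaments, was lower in both lines. Its log2 fold change was -1.26 for TC4-2A (adjusted p = 3.65e-20) and -0.81 for TL4-2A (adjusted p = 4.33e-15). FAM83H, which organises keratin filaments, was lower in the TC4-2A line at a log2 fold change of -0.64 (adjusted p = 6.32e-11) and in the TL4-2A line at -0.15 (adjusted p = 0.0361). KIF5C, a kinesin motor of neurons, was lower in the TC4-2A line at a log2 fold change of -0.25 (adjusted p = 3.25e-07) and higher in the TL4-2A line at 0.53 (adjusted p = 1.05e-15).

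Markers of the cell types that these filaments characterise were set beside them. Each marker list has few tested genes, and none was tested against the background shares over all genes. Those shares were 14.6% lower and 14.2% higher for TC4-2A, against 22.5% and 21.9% for TL4-2A. Of 8 markers of simple epithelium 5 were tested, of which 3 were lower in the TC4-2A line and 4 in the TL4-2A line, with 0 higher in either. Their summed level ran over 94.2 to 96.6 CPM in TC4-2A libraries, 90.1 to 94.2 CPM in TL4-2A libraries and 140.6 to 157 CPM in T-REx libraries, so it was lower in both lines. TC4-2A and TL4-2A libraries overlapped in this sum, as for KRT18 and unlike KRT8 and KRT19. Most of the sum was EPCAM, with means of 83.4 CPM in TC4-2A, 81.2 CPM in TL4-2A and 122 CPM in T-REx libraries. CDH1 (E-cadherin), the adhesion protein of epithelial junctions, had log2 fold changes of -1.15 in TC4-2A cells (adjusted p = 3.96e-14) and -1.37 in TL4-2A cells (adjusted p = 8.39e-16). EPCAM, an epithelial surface protein, had -0.55 in TC4-2A cells (adjusted p = 4.95e-13) and -0.59 in TL4-2A cells (adjusted p = 6.38e-14). GRHL2 and KRT7 reached only 1 and 4 counts in any library. The part of this shift in the keratin values was not tested.

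Neuronal markers as a list did not move in 1 direction. Of 10 such markers 5 were tested. In TC4-2A cells 1 was lower and 2 higher, and in TL4-2A cells 2 were lower and 3 higher. Their summed level was 44.9 to 49.5 CPM in TC4-2A libraries, 60.2 to 63.8 CPM in TL4-2A libraries and 42.4 to 45.7 CPM in T-REx libraries. MAP2 and SYP, with means of 28.6 and 20.1 CPM, made up most of the TL4-2A mean of 62.2 CPM. SYP (synaptophysin), a synaptic vesicle protein, was higher in the TC4-2A line at a log2 fold change of 0.40 (adjusted p = 6.88e-06) and in the TL4-2A line at 0.32 (adjusted p = 0.000171). MAP2, a microtubule protein of dendrites, was lower in the TC4-2A line at a log2 fold change of -0.40 (adjusted p = 0.000293) and higher in the TL4-2A line at 0.89 (adjusted p = 1.35e-12). The 2 markers lower in the TL4-2A line were RBFOX3 (log2 fold change -0.52, adjusted p = 0.00697) and TUBB3 (log2 fold change -1.14, adjusted p = 0.0125). TUBB3 was scarce, with means of 0.449 CPM in TL4-2A and 0.977 CPM in T-REx libraries.

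Mesenchymal markers, set beside VIM, were sparse: 3 of 8 were tested, and COL1A2, LUM, DCN and FAP reached 6 counts or fewer. Their summed level was 16.5 to 17.8 CPM in TC4-2A libraries, 18.4 to 18.9 CPM in TL4-2A libraries and 17.7 to 18.9 CPM in T-REx libraries. COL1A1, a fibrillar collagen, was lower in the TC4-2A line at a log2 fold change of -0.28 (adjusted p = 0.0163) and in the TL4-2A line at -0.48 (adjusted p = 7.02e-05), and COL3A1 was higher in the TL4-2A line at a log2 fold change of 0.66 (adjusted p = 0.000511), with 0.33 for TC4-2A (adjusted p = 0.115). In the list 1 marker was lower and 0 higher in TC4-2A cells, and 1 lower and 2 higher in TL4-2A cells.

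Of 6 glial markers 3 were tested. MBP, a myelin gene, was higher in the TC4-2A line at a log2 fold change of 0.29 (adjusted p = 0.00013) and lower in the TL4-2A line at -0.25 (adjusted p = 0.000926). GFAP, the filament protein of astrocytes, was lower in the TL4-2A line at a log2 fold change of -1.39 (adjusted p = 0.014), against 0.07 for TC4-2A (adjusted p = 0.915), with under 1 CPM in every library. Of 6 kidney markers 3 were tested, with 0 passing in TC4-2A cells and 2 lower in TL4-2A cells: LHX1 (log2 fold change -0.86, adjusted p = 2.61e-05) and NPHS1 (log2 fold change -1.47, adjusted p = 0.0174). For TC4-2A these were -0.32 for LHX1 (adjusted p = 0.0879) and -0.21 for NPHS1 (adjusted p = 0.743). NPHS1 was near the floor, with means of 0.513 CPM in TC4-2A, 0.220 CPM in TL4-2A and 0.593 CPM in T-REx libraries.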

How the data were processed

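RNA was depleted of ribosomal RNA and made into directional paired-end libraries. Per the labels and methods, the authors aligned reads with HISAT2 to GRCh38 and counted them per gene with featureCounts (Subread) on Gencode v33, and compared lines with DESeq2; no source used here gives the versions or the strand and multi-mapping options. The deposited counts are whole, unnormalized reads per gene. The authors' tables of fold changes and p-values were not used. The table gave 60648 usable lines after 3 damaged lines were left out, and 60462 identifiers (99.69%) matched Gencode v44, which gave symbols, exon lengths and positions.

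Genes passing filterByExpr (19473) were fitted with edgeR 4.0.16 (R 4.3.3): TMM scaling, 1 term per line over all 9 libraries, quasi-likelihood F test, 2-sided, Benjamini-Hochberg adjustment over all genes tested. CPM were scaled by TMM library sizes, and intervals are 95% t intervals of the fit. Ratios were compared by 2-sided exact permutation. The members and gene lists were chosen with earlier results of these data known. Text names all 10 members and, per list and comparison with T-REx, the 2 genes of smallest p among those passing, the nearest neighbours, and the 3 genes most like the most abundant neurofilament or neuronal, vimentin-type and keratin gene. EIF4B, CRABP2, BCAN-AS2, TROAP and KRT17 are nearest neighbours. RBFOX3 and TUBB3 are named besides, as the 2 neuronal markers lower in TL4-2A cells. Alternatives were DESeq2 1.42.0, RLE scaling, other low-count filters, only the lines compared, a replicate block and leaving out each library. Tested on simulated data for TC4-2A against T-REx with 19473 genes, edgeR recovered 38% of 1.2-fold, 66% of 1.5-fold, 90% of 2-fold and 92% of 4-fold changes, with 15 false among 158 calls. Far fewer genes were changed there than passed in the data, where this comparison gave 5607 calls. The simulated recovery and false calls therefore need not hold for the data.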

Additional observations from a re-analysis of the deposited data

Results flagged for a closer look

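For 7 genes the change relative to T-REx cells differed between the modified lines in a direct test of TC4-2A against TL4-2A (edgeR, adjusted p under 0.05). The log2 difference, TC4-2A minus TL4-2A, was 1.19 for KRT19, 1.04 for PRPH, 0.62 for NES and 0.41 for KRT8, all of which were lower in TL4-2A cells. It was -0.12 for NEFL and -0.13 for VIM, which were lower in TC4-2A cells, and 0.14 for INA. The calls for NEFL and INA were each lost when single libraries were left out.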

How the results depend on the processing

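Of 405 refits of single genes, 394 kept their direction and their side of the threshold, 9 fell below it and 2 changed sign. Both sign changes were of KRT18 in TC4-2A against TL4-2A cells, a difference of 0.03 that had not passed: it was -0.00071 without TC4-2A replicate 1 and -0.016 without TL4-2A replicate 3, and ranged up to 0.050 without TL4-2A replicate 2 (log2). The calls lost were NEFM in TC4-2A against T-REx cells (3 refits), INA in TC4-2A against TL4-2A cells (5 refits) and NEFL in the same comparison (1 refit); beyond the samples left out, the cause was not tested. With DESeq2, 5 genes passed for TC4-2A and 7 for TL4-2A against T-REx, and 6 between the modified lines. Leaving out 1 library gave 5 to 6, 7, and 5 to 7. Over all genes DESeq2 called 3987 for TC4-2A and 6533 for TL4-2A against T-REx, where edgeR called 5607 and 8633. No pairing by library number was seen: deviations of same-numbered libraries correlated between -0.0295 and 0.0302, and those of differently numbered libraries between -0.0197 and 0.0336. Such correlations cannot tell whether cultures or days were shared. With a replicate block 6, 7 and 7 genes passed, with no call of the 9 genes changed. Leaving out 1 library, the difference in the KRT8 to KRT18 log2 ratio ranged over -0.15 to -0.08 (TC4-2A against T-REx), -0.54 to -0.45 (TL4-2A against T-REx) and 0.35 to 0.42 (TC4-2A against TL4-2A), and that of NEFM to NEFL over 0.00059 to 0.36, 0.30 to 0.66 and -0.40 to -0.24. With 0.5 added to raw counts the NEFM to NEFL differences were 0.19, 0.48 and -0.29. Without a filter NEFH had log2 fold changes of -0.51 for TC4-2A (adjusted p = 0.614) and -0.46 for TL4-2A (adjusted p = 0.599) against T-REx. Depth limits NEFH, NEFM, PRPH and NES, which had under 100 counts per library.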
